A study of Mus musculus with 12 samples.

Results

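The genes described here encode the protein subunits of the cytosolic ribosome. They were taken as the protein-coding rows of the deposited expression table whose symbol follows the standard naming of small subunit proteins (Rps) and large subunit proteins (Rpl), including Rpsa and Rplp0 to Rplp2. The choice used symbols only and no measured value. It gave 80 of the 55322 rows, 31 for the small and 49 for the large subunit. A few subunits carry other symbols and were therefore not members, among them Rps3a1, Fau (which encodes Rps30) and Rack1. Their levels are given separately.

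The cells were conventional dendritic cells (cDCs), which take up antigen and present it to T cells, sorted from the mouse spleen. The sample titles give 4 groups of 3 libraries, M-cDC1 and M-cDC2 with L-cDC1 and L-cDC2, and do not spell out L and M. The title of the series concerns cDCs of lymphoid origin. Every group carries the genotype Il7r-cre; Rosa26-lsl-tdTomato in the labels, in which Cre expressed from the Il7r locus switches on a red reporter, whereas the growth protocol describes wild type C57BL/6J animals of 7 to 8 weeks. The labels say neither which libraries were sorted on the reporter nor which replicates came from separate or pooled animals. P-values therefore measure only the spread between these libraries, which may be technical.

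The cytosolic ribosome is built in the nucleolus and nucleus from ribosomal RNA and about equal numbers of molecules of each protein, so cells keep the output of these genes in step. Their mRNAs are short and abundant, and most begin with a C followed by a run of pyrimidines (the 5′ terminal oligopyrimidine, or TOP, tract), through which mTOR signalling controls their translation. Dendritic cells raise and lower protein synthesis as they mature, and translation by the ribosome also supplies many of the peptides shown on MHC class I. Levels of mRNA, which are what was measured here, do not give the amount of ribosomes or the rate of translation.

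The start regions of 6 members show how these genes begin. Each line gives 50 bases before and 20 after the start annotated by RefSeq on build GRCm38.p6, 5′ to 3′ along the gene, and for Rps27l the upstream one of its annotated starts. Capitals mark the pyrimidine runs CTCTTT and, overlapping or not, CTTTCC (both searched on the transcribed strand only), and the ETS core CCGGAAG (the letters bound by ETS factors such as GABP, searched on both strands). Rpl28 and Rpl10 are shown for the wide gap between cDC1 and cDC2 described below, Rps6 as the target of the S6 kinases, Rps27 and Rps27l as paralogs with unlike values, and Rpl26 as the member with the widest spread between libraries.
Rpl28, chr7:4792915-4792984, plus strand: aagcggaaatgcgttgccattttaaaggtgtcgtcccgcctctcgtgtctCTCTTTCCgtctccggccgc
Rpl10, chrX:74270766-74270835, plus strand: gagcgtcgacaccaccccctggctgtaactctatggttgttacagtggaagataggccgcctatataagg
Rps6, chr4:86857348-86857417, minus strand: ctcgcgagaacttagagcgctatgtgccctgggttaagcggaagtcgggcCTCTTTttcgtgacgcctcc
Rps27, chr3:90213629-90213698, minus strand: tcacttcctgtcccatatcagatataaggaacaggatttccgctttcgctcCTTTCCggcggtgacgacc
Rps27l, chr9:66946036-66946105, plus strand: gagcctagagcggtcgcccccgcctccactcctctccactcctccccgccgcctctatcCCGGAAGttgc
Rpl26, chr11:68901516-68901585, plus strand: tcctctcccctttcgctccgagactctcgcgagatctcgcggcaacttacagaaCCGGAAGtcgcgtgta

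In Rpl28, Rps6 and Rps27 the marked pyrimidines lie at the annotated start itself. The Rpl10 window holds none of these letters, which says only that they are not in this window. RefSeq start windows of 300 bases (250 before and 50 after the start) were at hand for 57 of the 77 members tested below, as 68 windows. CTTTCC stood in 39.7% of them against 14.1% of all 32851 windows of mouse genes, and CTCTTT in 38.2% against 12.1%. The ETS core CCGGAAG stood in 36.8% against 8.86%. AAGATGG, the core of the YY1 motif, stood in 16.2% against 6.34%, and GGGCGG, the Sp1 box, in 60.3% against 35.7%, both searched on either strand. TATAAA, the TATA box, was in 8.82% of the members' windows and 13.6% of all. The first of these pyrimidine runs can overlap the other, as in Rpl28. A match of letters is a description and no evidence of binding.

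Libraries were prepared by SMART-Seq HT cDNA synthesis and Nextera XT tagmentation, neither of which marks strand. Levels are in FPKM, in which reads are scaled to the length of the gene and the total of the library. The library totals worked out from them lay between 15879864 and 24498235 reads, so 3 reads on a gene of 1 kb were worth 0.122 to 0.189 FPKM. All 10 fixed markers of cDC1 were higher in cDC1 and all 10 of cDC2 were higher in cDC2, in both L and M. Libraries of cDC1 had 10394 to 10787 genes at 1 FPKM or more and those of cDC2 had 11111 to 11570. The limma test took the 12434 genes that reached 1 FPKM in 3 or more libraries, on the log2(FPKM + 1) scale. Below, "called" means an adjusted p under 0.05. Log2 differences below are on that scale, with the standard error (SE) from the fit.

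Of the 80 members, 77 passed this filter. The other 3 were paralogs known from testis or muscle. Rpl10l, the testis copy of Rpl10 that lacks introns, had no read in any library. Rpl39l, a copy of Rpl39, was at 0 in all 6 cDC1 libraries and at 0.335 ± 0.27 FPKM in L-cDC2 and 0.442 ± 0.143 in M-cDC2 (SD, n = 3). Rpl3l, the striated muscle copy of Rpl3, lay between 0 and 0.497 FPKM, with group means from 0.0689 to 0.23. These levels are close to what 3 reads are worth. With no filter on low values and on the TPM scale Rpl39l entered the test, and it was called lower in cDC1 within M (limma adjusted p = 0.0198 and 0.0200) but not within L (0.0649 and 0.0600).

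Together the members made up a larger part of the RNA of cDC1 than of cDC2. Their summed level was 25903.4, 30661.1 and 26150.0 FPKM in the M-cDC1 replicates 1 to 3, and 18769.5, 22681.1 and 24917.4 in those of L-cDC1. It was 17791.9, 20684.8 and 19882.1 in M-cDC2 and 16614.6, 18468.2 and 18780.0 in L-cDC2. Every M-cDC1 library lay above every library of the other groups, while L-cDC1 replicate 1 lay among the cDC2 libraries. As a share of reads this was 4.67 ± 0.384% in M-cDC1, 3.79 ± 0.487% in L-cDC1, 3.35 ± 0.215% in M-cDC2 and 3.10 ± 0.192% in L-cDC2 (SD, n = 3 each). The ratio of small to large subunit sums varied little, from 0.668 to 0.696 over the 12 libraries. In bulk RNA, a group with fewer cells that express a gene and one with less of its RNA per cell cannot be told apart.

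**Figure D1:**
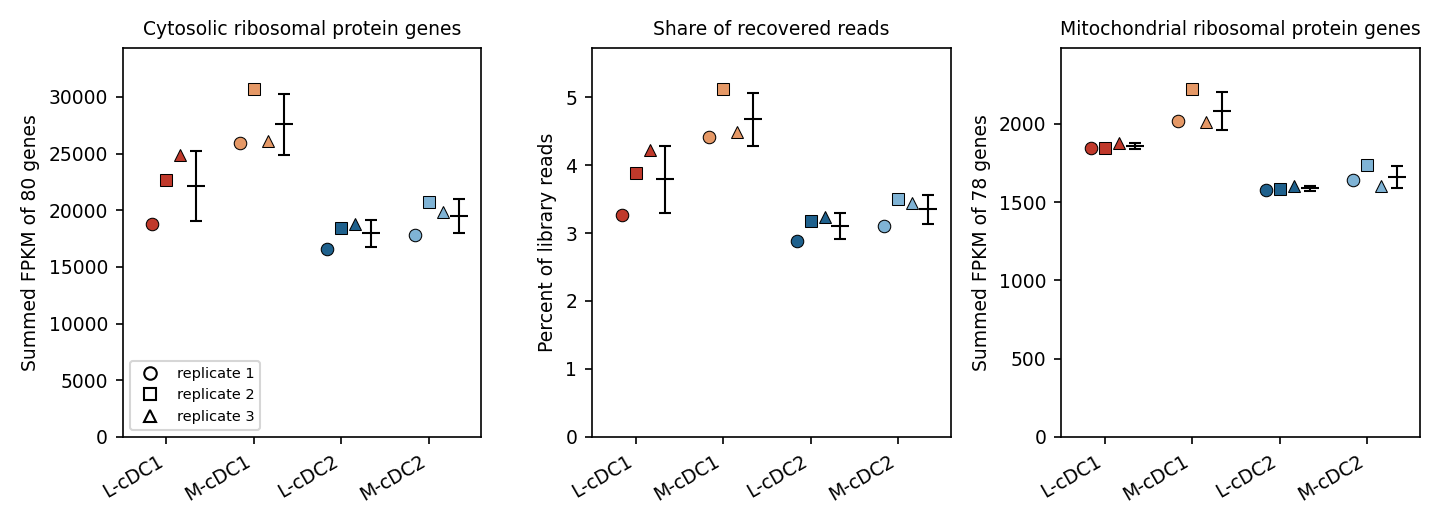
Summed level of the 80 cytosolic ribosomal protein genes (left, FPKM), their share of recovered reads (middle, percent) and the summed level of 78 mitochondrial ribosomal protein genes (right, FPKM) in each library of the 4 groups. Points are libraries, with the symbol giving the replicate number, and bars are mean ± SD of 3. The M-cDC1 libraries are above all others in the left panel, and replicate 1 is the lowest in every group there.

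The members moved together from library to library. Replicate 1 had the lowest sum in each of the 4 groups. It was the lowest library for 73 of the 77 tested members in L-cDC1 and for 72 in L-cDC2, for 48 in M-cDC2 and for 37 in M-cDC1, where replicate 3 was the lowest for 36. Replicate 1 was the deepest library of L-cDC2, M-cDC1 and M-cDC2 and the shallowest of L-cDC1. M-cDC1 had the highest group mean for 73 of the 77, and L-cDC2 had the lowest for 56. These orders were not counted over all tested genes, so whether they are particular to the members was not tested.

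Mitochondrial ribosomal proteins, made in the cytosol for the separate ribosome of mitochondria, kept the same order of groups. Their 78 genes summed to 2083 ± 119 FPKM in M-cDC1, 1858 ± 17.3 in L-cDC1, 1663 ± 69.3 in M-cDC2 and 1588 ± 13.5 in L-cDC2. Their spread within L-cDC1 was narrow, from 1847.57 to 1877.74, where the cytosolic sum ran from 18769.5 to 24917.4.

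Within M, most of the 77 tested members were higher in cDC1 than in cDC2 and none of them was called lower. Of the 77, 58 were called higher and 0 lower, where 12.7% of all tested genes were called higher and 25.4% lower (limma, Benjamini-Hochberg adjusted p under 0.05 over all 12434 genes). At an unadjusted p under 0.05 there were 63 members in either direction, and 46.3% of all tested genes. The median difference was 0.56, against -0.18 over all tested genes, and 75 members were above 0, as were 36.2% of all tested genes. In 60 members every M-cDC1 library lay above every M-cDC2 library, which held for 16.9% of all tested genes. The small subunit had 23 of 31 called higher and the large subunit 35 of 46. Of all called genes, 33.2% were higher in cDC1. That share was 49.2% after median-of-ratios scaling, 53.4% after quantile normalization and 24.3% on the TPM scale. The members' median stayed above that of all tested genes by 0.44 to 0.79 under these and the other settings that kept all libraries.

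Rpl10, the X-linked protein that sits close to the catalytic centre and completes the large subunit, had the widest difference. It stood at 655, 614 and 688 FPKM in M-cDC1 against 361, 277 and 359 in M-cDC2. The L-cDC1 libraries were at 422, 527 and 609, and those of L-cDC2 at 302, 328 and 305. The lowest cDC1 library was above the highest cDC2 library, and the log2 difference was 0.98 in M (SE 0.132, limma adjusted p = 4.79e-05) against 0.72 in L (adjusted p = 0.000657). Rpl14, a large subunit protein, was at 585, 635 and 597 FPKM in M-cDC1 against 316, 304 and 320.0 in M-cDC2, a difference of 0.95 (SE 0.097, adjusted p = 3.34e-06). Its L libraries were at 456, 529 and 585 in cDC1 and 270.3, 295 and 313 in cDC2, a difference of 0.83 (adjusted p = 1.21e-05). No library of one subset reached the level of the other.

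Rps20, a small subunit protein of the head, was at 105, 121 and 115 FPKM in M-cDC1 against 60.8, 53.2 and 65.0 in M-cDC2. The groups were apart by 0.92 (SE 0.131, adjusted p = 7.56e-05). In L the difference was 0.48 (adjusted p = 0.0105), with cDC1 at 69.6, 90.2 and 101 and cDC2 at 57.3, 62.3 and 65.0. Rpl28, whose start is shown above, was at 161, 205 and 154 FPKM in M-cDC1 against 74.2, 113 and 92.6 in M-cDC2 (0.90, SE 0.17, adjusted p = 0.000905). In L it was at 111, 134 and 171 against 81.5, 84.9 and 84.9 (0.70, adjusted p = 0.00509). Its cDC2 values in L were nearly equal while those of L-cDC1 were spread, with replicate 3 the highest. Rps28, a small protein near the mRNA exit, was at 261, 339 and 238 FPKM in M-cDC1 against 132, 162 and 164 in M-cDC2 (0.86, SE 0.174, adjusted p = 0.00147), and at 0.44 it missed the threshold in L (adjusted p = 0.0587), where 6 of the 22 alternatives called it.

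**Figure D2:**
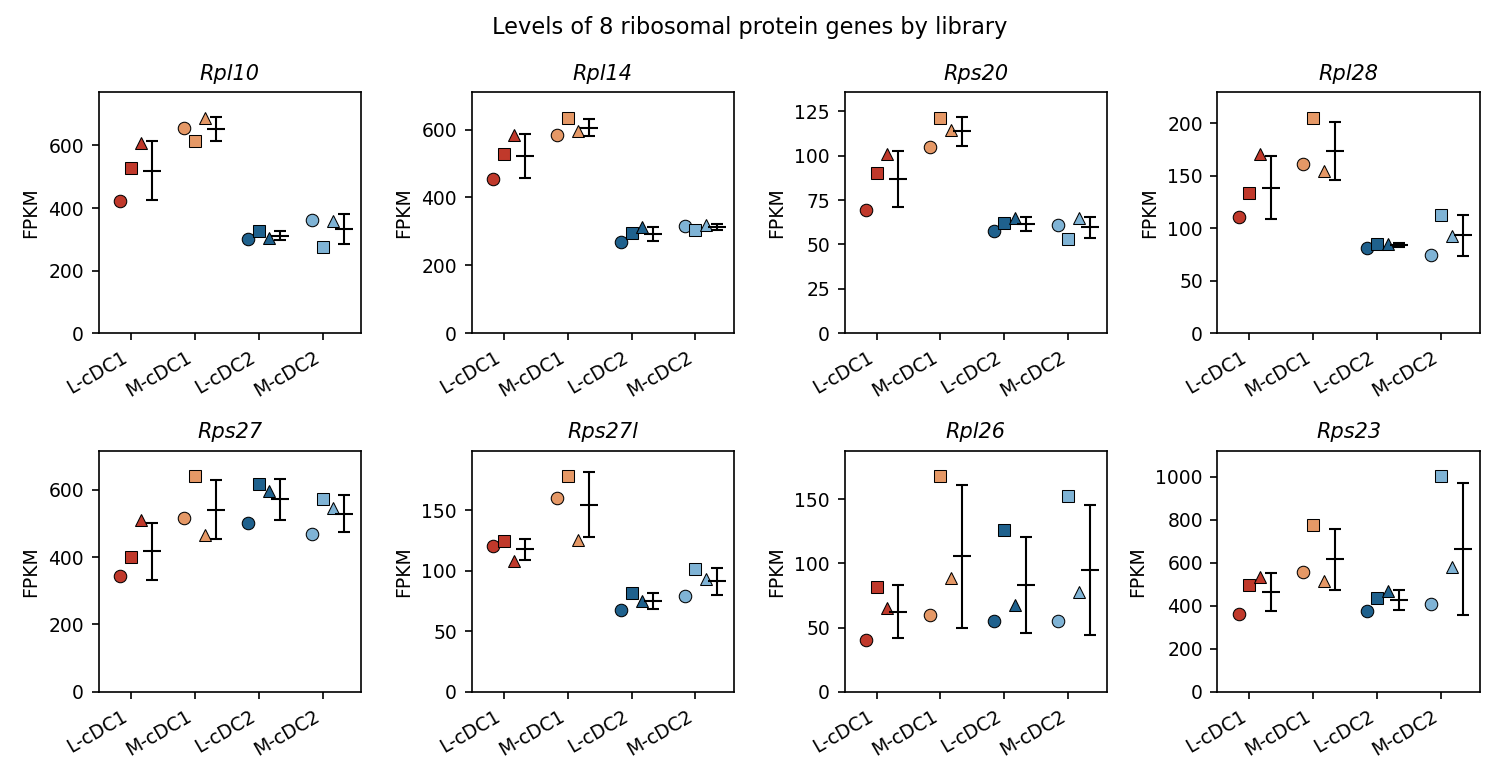
Level (FPKM) of 8 ribosomal protein genes in each of the 12 libraries, by group. Points are libraries, with circle, square and triangle for replicates 1, 2 and 3, and bars are mean ± SD. Rpl10, Rpl14, Rps20 and Rpl28 are higher in cDC1, Rps27 is not, Rps27l is, and in Rpl26 replicate 2 is the highest in every group.

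Within L, fewer members passed. Of the 77, 24 were called higher in cDC1 and 1 lower, where 12.9% of all tested genes were called higher and 26.6% lower. At an unadjusted p under 0.05 there were 36, or 46.8%, near the 48.1% of all tested genes. The median was 0.24 against -0.19 over all tested genes, and 68 members were above 0, as were 36.8% of all tested genes. In 34 every L-cDC1 library was above every L-cDC2 library (16% of all tested genes) and in 0 every one was below (32.7% of all). The small subunit had 13 of 31 called higher and the large subunit 11 of 46. The count rests in part on 1 library: without L-cDC1 replicate 1, in which 73 members had their lowest value, 39 members were called. After median-of-ratios scaling 51 were called, all higher. The share of all called genes that were higher in cDC1 was 32.7%, and 49.1%, 52.6% and 26.2% after median-of-ratios scaling, quantile normalization and on the TPM scale.

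Markers of other cell types differed between the subsets in the same libraries. The summed level of 9 erythroid and platelet markers was 31.2 to 50.5 FPKM in L-cDC1 and 22.4 to 24.2 in M-cDC1, against 0.134 to 1.97 in L-cDC2 and 0.706 to 6.22 in M-cDC2. That of 10 monocyte and macrophage markers was 325 to 334 FPKM in L-cDC1 and 426 to 485 in M-cDC1. In cDC2 it was 320 to 479 (L) and 1016 to 1225 (M), so the sums of the subsets overlapped in L. Lyz2 made up most of it, at 318 to 329 FPKM in L-cDC1 and 182 to 351 in L-cDC2. Of the 7 tested markers of this list, 3 were called lower in cDC1 within L and 0 higher (26.6% and 12.9% of all tested genes). In 4 of them every L-cDC1 library was below every L-cDC2 library (32.7% of all). The sum of 12 B cell markers was lower in cDC1, at 50.8 to 114 FPKM against 187 to 382 within L and 11.3 to 17.1 against 86.3 to 118 within M. The sum of 12 T and NK cell markers was also lower there, at 12.3 to 22.4 against 47.3 to 113 within L and 1.51 to 2.12 against 7.49 to 9.26 within M. Their part in the comparison of cDC1 with cDC2 was not tested.

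The comparisons in M and in L share no library, but both came from 1 fit with a shared estimate of the spread. Their calls are therefore not independent. Of the tested members, 75.3% were called higher in M, so a large overlap would be found without any further link. All 24 members called higher in L were also called in M, which is 100% of the calls in L and 41.4% of the 58 in M. Over all tested genes, 1224 were called higher in both, which is 76.3% of those called higher in L and 77.8% of those in M. Among the largest differences in L were those of Rpl13a (0.84, adjusted p = 0.0003), Rpl14 (0.83), Rpl10 (0.72) and Rpl28 (0.70). Rpl13a is a large subunit protein that also acts outside the ribosome in silencing inflammatory mRNAs in monocytes. Its level was low, 15.5, 14.7 and 15.5 FPKM in L-cDC1 against 7.23, 8.77 and 8.26 in L-cDC2, and 15.3, 18.6 and 16.4 in M-cDC1 against 8.03, 9.29 and 11.4 in M-cDC2. The cDC1 and cDC2 libraries of Rpl13a did not overlap in either comparison. Called in neither comparison were 18 members, among them Rpl4, Rpl5, Rps9, Rps19, Rps23, Rps24 and Rps25.

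Rps27 was the member called lower. This zinc-finger protein of the small subunit was at 343, 399 and 509 FPKM in L-cDC1 against 502, 616 and 595 in L-cDC2. The highest L-cDC1 library overlapped the lowest L-cDC2 library, and the difference was -0.47 (SE 0.151, limma adjusted p = 0.0251). In M the libraries of the subsets overlapped, with 517, 639 and 467 FPKM in cDC1 and 467, 573 and 546 in cDC2, a difference of 0.03 (adjusted p = 0.917) that turned to -0.04 after quantile normalization and -0.11 on the TPM scale. The call in L ended without L-cDC1 replicate 1 or 2, without L-cDC2 replicate 2 or 3, with no filter on low values and after median-of-ratios scaling (-0.27), with adjusted p from 0.00517 to 0.21 over the 22 alternatives. Its paralog Rps27l, which takes the same place in the ribosome and is a target of p53, was called higher. It was at 160.3, 178 and 126 FPKM in M-cDC1 against 79.3, 101 and 93.3 in M-cDC2, and at 121, 125 and 108 in L-cDC1 and 68.0, 81.7 and 75 in L-cDC2. All cDC1 libraries were above all cDC2 libraries, with differences of 0.75 in M (adjusted p = 0.000597) against 0.65 in L (adjusted p = 0.00168). Rps27 was the more abundant paralog in every library.

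The other members at or below 0 did not pass the test. In M, Rpl24 was at -0.18 (SE 0.283) and Rps23 at -0.03 (SE 0.261), and after median-of-ratios scaling both were above 0, at 0.0021 and 0.17. In L, Rpl26 was at -0.37 (SE 0.421, adjusted p = 0.515, and 0.0364 to 0.965 over the 22 alternatives, of which 1 called it). Rps15a (-0.10), Rps19 (-0.08) and Rpl37a (-0.07) were also below 0 in L, and above 0 after median-of-ratios scaling at 0.09, 0.11 and 0.12. Rpl26, which binds p53 mRNA besides its place at the exit tunnel, had the largest error of all. It was at 59.8, 168 and 88.7 FPKM in M-cDC1, 40.6, 81.2 and 65.3 in L-cDC1, 55.1, 152 and 77.9 in M-cDC2 and 55.3, 126 and 67.9 in L-cDC2. In each group replicate 2 was the highest. Rps23, a protein of the decoding centre, was at 407, 1002 and 580.3 FPKM in M-cDC2 against 377, 435 and 468 in L-cDC2, so that M-cDC2 replicate 2, the shallowest library, stood apart there. Without that library its difference in M was 0.32.

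**Figure D3:**
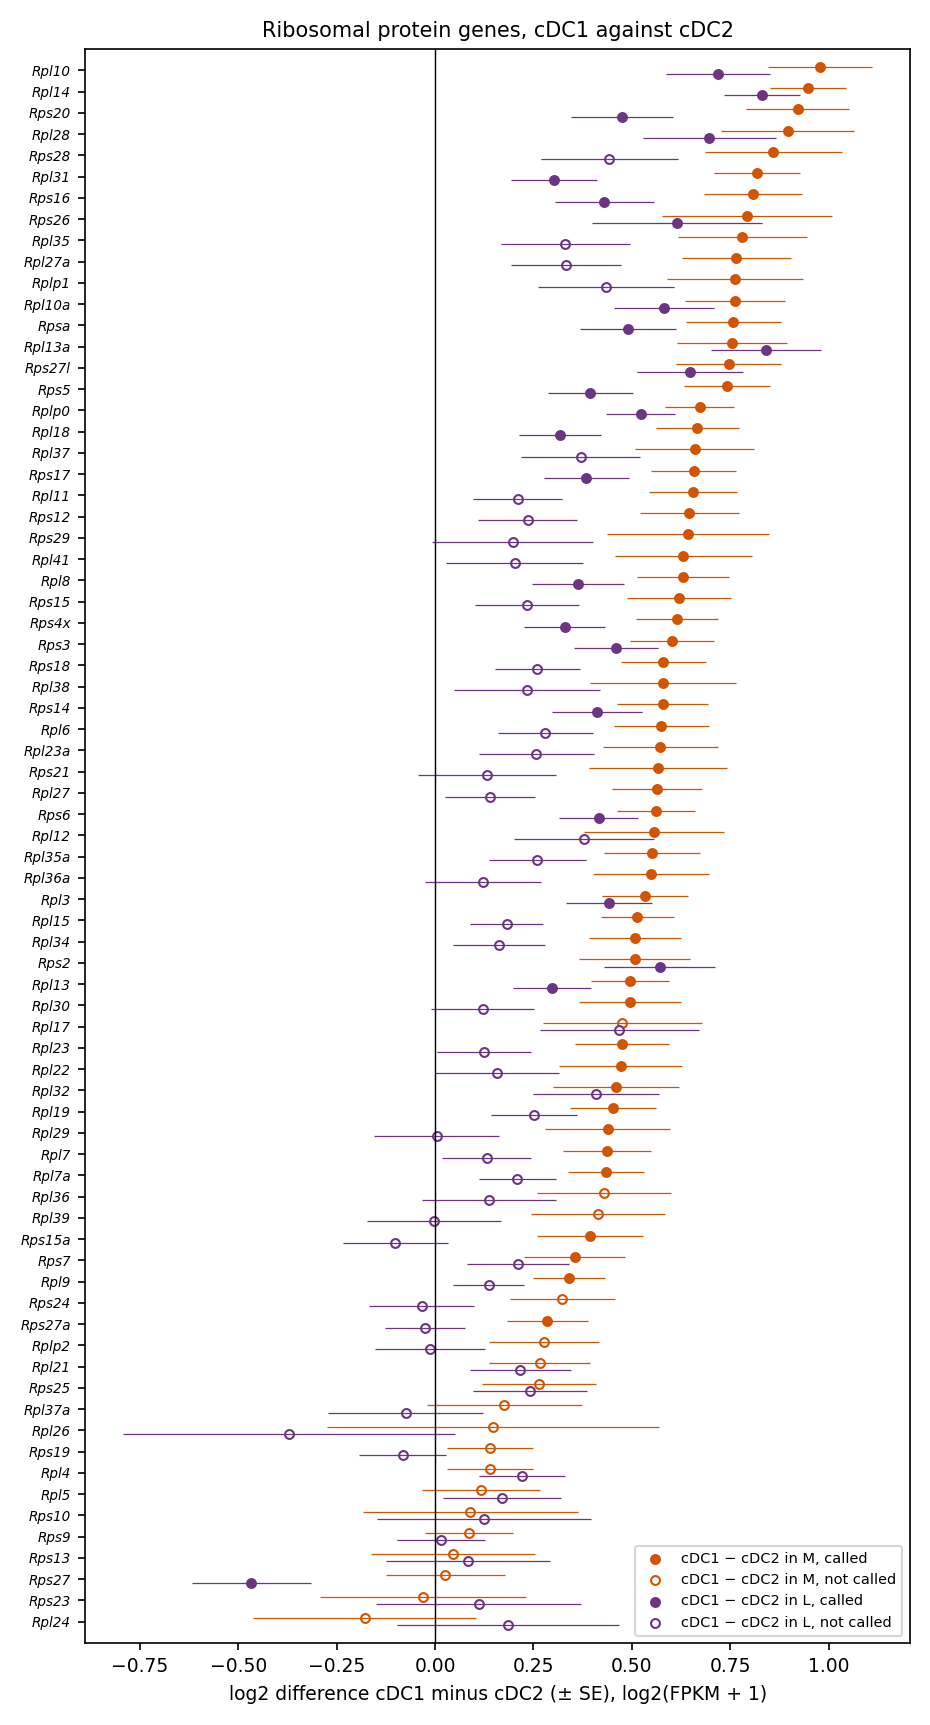
Log2 difference cDC1 minus cDC2 (horizontal axis, log2(FPKM + 1) scale, bars ± SE) of tested members, in M (orange) and in L (purple), ordered by the difference in M. Filled points passed the limma test at an adjusted p under 0.05. A few tested members are not shown. Those called in M and those called higher in L are to the right of 0, and Rps27 in L is the filled point to the left.

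By role, the proteins of the stalk that recruits elongation factors gave differences that were not tested against each other. Rplp0, which anchors the stalk, was at 1101, 1236 and 1212 FPKM in M-cDC1 against 751, 717 and 757 in M-cDC2. The L-cDC1 libraries were at 884, 1022 and 1082 and those of L-cDC2 at 663, 696 and 714. The subsets were apart in both, by 0.67 in M (SE 0.0888, adjusted p = 4.02e-05) against 0.52 in L (adjusted p = 0.000358). Rplp1, an acidic protein of the stalk tip, differed by 0.76 in M (adjusted p = 0.00331) against 0.43 in L, which missed the threshold (adjusted p = 0.0617) and passed it under 5 of the 22 alternatives. Its partner Rplp2 was at 0.28 in M (adjusted p = 0.139, and 0.0207 after median-of-ratios scaling) against -0.01 in L. Means of Rplp2 were 157 ± 23.6 FPKM in M-cDC1, 129.5 ± 19.8 (M-cDC2), 123 ± 15.8 (L-cDC1) and 123 ± 9.6 (L-cDC2), so the last pair did not differ beyond their spread.

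Rpsa, the small subunit protein also known as a laminin receptor, was at 457, 469 and 562 FPKM in M-cDC1 against 311, 255 and 313 in M-cDC2 (0.76, adjusted p = 0.000223). In L it was at 349, 401 and 450.0 against 258, 298 and 294 (0.49, adjusted p = 0.00564). Rps6, the substrate of the S6 kinases, was at 375 ± 23.2 in M-cDC1 against 254 ± 13.2 in M-cDC2 (0.56, adjusted p = 0.000506). Its L values were 327 ± 36.8 and 245 ± 17.6 (0.42, adjusted p = 0.00443). Both genes were called in M and in L under all 22 alternatives run for each.

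Rpl5 and Rpl11 form, with 5S ribosomal RNA, the particle that can bind Mdm2. Rpl11 was at 134 ± 11 FPKM in M-cDC1 against 84.6 ± 7.01 in M-cDC2 (0.66, adjusted p = 0.000403), and at 101 ± 11.6 and 86.9 ± 7.5 in L (0.21, adjusted p = 0.156, and 0.0159 after median-of-ratios scaling). Rpl5 was at 123 ± 14.2 and 116 ± 29.7 in M (0.12, adjusted p = 0.588), where the sign turned on the TPM scale (-0.02), and at 105 ± 7.22 and 93.4 ± 7.9 in L (0.17, adjusted p = 0.397). Whether Rpl5 and Rpl11 differed from each other was not tested.

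Rpl38, which is needed for the translation of Hox mRNAs in the embryo, differed by 0.58 in M (adjusted p = 0.0248) against 0.23 in L (adjusted p = 0.345). Rpl22, a large subunit protein needed for T cell development, differed by 0.47 in M (adjusted p = 0.0301) against 0.16 in L (adjusted p = 0.46). The M calls of both ended without M-cDC1 replicate 2 and without M-cDC2 replicates 1 or 3, and that of Rpl22 also without M-cDC1 replicate 1 or M-cDC2 replicate 2. With no filter on low values, on the TPM scale or in a fit of the compared groups alone both calls also ended, and after quantile normalization that of Rpl38. Of the X-linked members, Rps4x differed by 0.62 in M (adjusted p = 0.00034) against 0.33 in L (adjusted p = 0.0217). The L call of Rps4x ended without L-cDC1 replicate 2 or 3 and without L-cDC2 replicate 1 or 2, with no filter and on the TPM scale. Rpl39, the small protein that lines the exit tunnel, was at 0.41 in M (adjusted p = 0.0707) and passed under 4 of the 22 alternatives. Rpl3, which helps shape the catalytic centre, differed by 0.53 in M (adjusted p = 0.00157) against 0.44 in L (adjusted p = 0.00536), with 378 ± 11.8 FPKM in M-cDC1, 353 ± 38.4 in L-cDC1, 262 ± 32.1 in M-cDC2 and 259 ± 21.4 in L-cDC2.

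Among the members with the highest mean level per length were Rplp0, Rplp1, Rpl4 and Rpl32. Rpl4, a large subunit protein, had group means of 929 ± 86.1 FPKM (M-cDC1), 847 ± 126 (M-cDC2), 840.2 ± 54.1 (L-cDC1) and 719.8 ± 27.1 (L-cDC2), with a difference of 0.14 in M (adjusted p = 0.35, and 0.0357 after median-of-ratios scaling) that turned to -0.05 after quantile normalization. Rpl32 was called in M at 0.46 (adjusted p = 0.0367) and missed the threshold in L at 0.41 (adjusted p = 0.0581), where 10 of the 22 alternatives called it. The M call of Rpl32 ended without M-cDC1 replicate 1 or 2 and without M-cDC2 replicate 1 or 3, with no filter, after quantile normalization, on the TPM scale and in a fit of the compared groups alone.

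Levels across members spread widely, from a mean of 4.01 FPKM for Rps10 upward, with quartiles of 109 and 368 FPKM around a median of 191. The gene length by which the deposited values are divided had a median of 1781 bases over the 77 members, whereas the principal transcript in GENCODE M21 had a median of 681. Rps15a is the extreme, with 6270 bases in the table and 640 in the transcript. With transcript length, an alternative chosen after seeing the data, the quartiles were 280.4 and 849 around a median of 542, so the order of members depends on the length used while, apart from the pseudocount, log2 differences between groups do not.

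Copies of these genes elsewhere in the genome can share their reads. The table holds 319 rows named as numbered copies (-ps) of 62 members, and 241 of these rows had reads. Over members, the median share of reads that fell in the copies was 0.116%. It was 33.4% for Rps10 and 8.31% for Rpl38, followed by Rpl9 (2.43%), Rps13 (2.2%) and Rpl17 (1.86%), so values of at least Rps10 and Rpl38 are uncertain. Only copies named in this way were counted, so a low share does not show that a member is free of shared reads. Rpl13a (0.313%) and Rpl24 (0 named copies) had low mean levels, 12.4 and 9.3 FPKM. Rpl38-ps2 alone stood at 48.7 FPKM in M-cDC1, 40.4 in L-cDC1, 35.7 in M-cDC2 and 31.7 in L-cDC2. How reads that match several places were counted is not given in the sources used here.

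Subunits outside the naming pattern gave the same order of groups in part. Rps3a1 was at 1069.6 ± 38.8 FPKM in M-cDC1, 873 ± 55.6 in L-cDC1, 768 ± 40.7 in M-cDC2 and 715 ± 58.6 in L-cDC2. Rack1, the scaffold protein on the small subunit head, was at 127 ± 7.72, 114 ± 10.6, 97.0 ± 4.87 and 84.4 ± 5.25. It differed by 0.38 in M (adjusted p = 0.00671) against 0.43 in L (adjusted p = 0.00294). Fau was called in M at 0.38 (adjusted p = 0.0282), while in L-cDC2 it stood at 400.3 ± 8.19 FPKM against 370.1 ± 75 in L-cDC1. Rpl36al, a paralog of Rpl36a, was called in L at 1.15 (adjusted p = 0.00539), with 20.3 ± 1.19 FPKM in L-cDC1 against 8.74 ± 2.06 in L-cDC2.

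Other genes of translation, taken from lists chosen with earlier results of these data known, were called in both directions. Of all tested genes, 12.7% were called higher and 25.4% lower in M, and 12.9% and 26.6% in L. Of 9 elongation factor genes 7 were called higher in cDC1 and 1 lower in M, and the counts were the same in L. Eef1b2, the exchange factor of Eef1a, was at 251 ± 25.5 FPKM in M-cDC1 against 79.5 ± 12.2 in M-cDC2 (1.65, adjusted p = 6.42e-07), and at 212 ± 11 and 57.7 ± 10.8 in L (1.88). Eif5a, which relieves stalls at proline runs, differed by 0.60 in M and 0.62 in L. The gene called lower was Eef2k, the kinase that inhibits Eef2, at -2.33 in M and -2.48 in L, with 2.44 ± 0.846 FPKM in M-cDC1 against 16.0 ± 2.07 in M-cDC2. Of 35 initiation factor genes 10 (28.6%) were called higher and 2 (5.71%) lower in M, and 11 (31.4%) and 2 (5.71%) in L. Eif2b2, a subunit of the exchange factor of eIF2, differed by 1.61 and 1.6 and Eif3g by 0.84 and 1.04, while Eif4b was lower by values of -0.66 and -0.48.

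Genes that make ribosomes were also called in both directions. Of 43 assembly factor genes 9 (20.9%) were called higher and 1 (2.33%) lower in M, and 6 (13.95%) and 2 (4.65%) in L. The shares of all tested genes were 12.7% higher and 25.4% lower in M, and 12.9% and 26.6% in L. The share of assembly factor genes called higher in L was near that of all tested genes, and their shares called lower were below it in both. Pes1, of the large subunit assembly complex PeBoW, was called higher in both (0.66 and 0.48), as was Fbl, which methylates ribosomal RNA (0.57 and 0.99), and Gnl2 was called lower in both (-0.46 and -0.75). Of 12 RNA polymerase I genes 4 (33.3%) were called higher in M and 4 (33.3%) in L, with 1 (8.33%) lower in M. Polr1d differed by 0.95 and 0.72 and Polr1a by 0.89 and 0.98. Of 12 host genes of small nucleolar RNAs 5 (41.7%) were higher and 1 (8.33%) lower in M. In L 1 (8.33%) was higher and 2 (16.7%) lower, both shares below those of all tested genes. Gas5, which itself carries a TOP tract, was called in M at 0.55 (adjusted p = 0.0113).

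Among 25 regulators of ribosome synthesis and of TOP mRNA translation, 2 were called higher and 7 lower in M and 2 and 6 in L. The 28% and 24% called lower are near the 25.4% and 26.6% of all tested genes. Mycl, the Myc family member of dendritic cells, was the higher one with the largest difference, at 95.1 ± 14.2 FPKM in M-cDC1 against 34.8 ± 4.95 in M-cDC2 (1.42, adjusted p = 1.12e-06) and 116 ± 6.62 and 29.6 ± 1.94 in L (1.93). The S6 kinase genes Rps6ka1 (-1.02 in M and -0.84 in L) and Rps6kb2 (-0.83 and -0.72) were called lower, as was the Myc antagonist Mxd1 (-0.85 and -0.45). Of 14 genes listed under ribosome quality control and surveillance, 1 (7.14%) was higher and 3 (21.4%) lower in M, and 1 (7.14%) and 1 (7.14%) in L. Of all tested genes, 12.7% were called higher in M and 12.9% in L. That list also holds Ddit4, an inhibitor of mTOR rather than a quality control factor, at -3.00 and -2.76. Mitochondrial ribosomal protein genes had 23 of 77 (29.9%) called higher and 2 (2.6%) lower in M (median 0.19). In L they had 16 (20.8%) and 2 (2.6%), with a median of 0.14. For comparison of level and length, the 416 other tested genes with a mean of at least 100 FPKM had medians of 0.16 in M and 0.11 in L. The 1765 other tested genes shorter than 1 kb had medians of -0.09 and -0.17.

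The L minus M comparison within cDC1 gave lower values in L for every tested member and no call. All 77 differences were below 0, where 46.9% of all tested genes were below 0. Counts above 0 were 2 after quantile normalization, 1 on the TPM scale and 1 without M-cDC1 replicate 2. The median was -0.34, against 0.02 over all tested genes and -0.13 over mitochondrial ribosomal protein genes. 0 members passed (0.394% of all tested genes did). At an unadjusted p under 0.05 there were 55 members, and 10.3% of all tested genes, and limma-voom on recovered reads also called 0. In 49 members every L-cDC1 library lay below every M-cDC1 library, which held for 5.63% of all tested genes. Beside these values, the summed level of 12 B cell markers was 50.8 to 114 FPKM in L-cDC1 against 11.3 to 17.1 in M-cDC1, and that of 12 T and NK cell markers 12.3 to 22.4 and 1.51 to 2.12. The B cell factor Pax5 was at 0 in every M-cDC1 library, as were Cd3g, Trac and Klrb1c. The part of other cells in the ribosomal protein values was not tested.

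Rps15a, a small subunit protein, was at 27.8, 36.8 and 36.7 FPKM in L-cDC1 and 46.5, 56.9 and 43.8 in M-cDC1, with no overlap (-0.53, adjusted p = 0.131). The largest difference was that of Rpl26 (-0.67, SE 0.421, adjusted p = 0.642), whose groups overlapped, followed by Rps15a, Rps10 (-0.49), Rps29 (-0.47) and Rps24 (-0.47). The size rests in part on single libraries. Without L-cDC1 replicate 1 the median was -0.23 with 16 members at an unadjusted p under 0.05, and without M-cDC1 replicate 2 it was -0.26 with 27. With 1 library left out in turn, 49 to 72 members showed no overlap, where the share of all tested genes was 8.96% to 12%. Leaving out a library can only keep or raise such a count, so its lower end says nothing about stability. The highest count was that without L-cDC1 replicate 3, beside 10.4% of all tested genes.

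Within cDC2 no member passed the test between L and M. 0 were called, where 1.83% of all tested genes were. The median was -0.06 against 0.03 over all tested genes, and 61 members were below 0 (45.2% of all tested genes). In 1 member the L-cDC2 libraries all lay below the M-cDC2 libraries, as in 6.92% of all tested genes, and 1 member had an unadjusted p under 0.05 (10.2% of all tested genes). The lowest values were those of Rps23 (-0.54), Rps10 (-0.53), Rps13 (-0.47), Rpl17 (-0.42) and Rpl24 (-0.42), with adjusted p from 0.453 to 0.69. In M-cDC2 replicate 2 Rps10 stood at 7.44 FPKM, where the other libraries of the group were at 3.07 and 3.97, and Rpl24 at 14.4 against 7.05 and 11.3. The highest were Rpl35 (0.24), Rpl27a (0.19), Rpl29 (0.15), Rpl31 (0.14) and Rps27 (0.11). The median was -0.0020 without L-cDC2 replicate 1. Markers of B cells summed to 187 to 382 FPKM in L-cDC2 and 86.3 to 118 in M-cDC2, and those of T and NK cells to 47.3 to 113 and 7.49 to 9.26. The part of other cells here was not tested.

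Whether the L minus M difference itself differed between cDC1 and cDC2 was tested as an interaction. 0 members passed, as did 0.298% of all tested genes. The smallest adjusted p was 0.298, for Rpl31, and 12 members had an unadjusted p under 0.05 (8.53% of all tested genes). The median was -0.29 against -0.005 over all tested genes, and 69 members were below 0 (50.6% of all tested genes). Rpl31, a large subunit protein at the tunnel exit, was at 115, 131 and 150.3 FPKM in the L-cDC1 libraries and 162, 183 and 168 in those of M-cDC1, and at 97.4, 112 and 111 in L-cDC2 and 97.1, 89.6 and 103 in M-cDC2. The L libraries were the lower ones in cDC1 and overlapped the M libraries in cDC2, for an interaction of -0.52 (SE 0.154). By size Rpl26 was the lowest (-0.519, against -0.517 for Rpl31), and Rps15a (-0.49), Rps27 (-0.49) and Rpl35 (-0.45) came after them. At the other end stood Rpl24 (0.36), Rps23 (0.14), Rpl13a (0.09), Rpl4 (0.08) and Rps2 (0.06). The comparisons in this and the preceding paragraphs share libraries, M-cDC1 with the comparison of subsets in M and L-cDC1 with that in L, so they do not support one another.

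**Figure D4:**
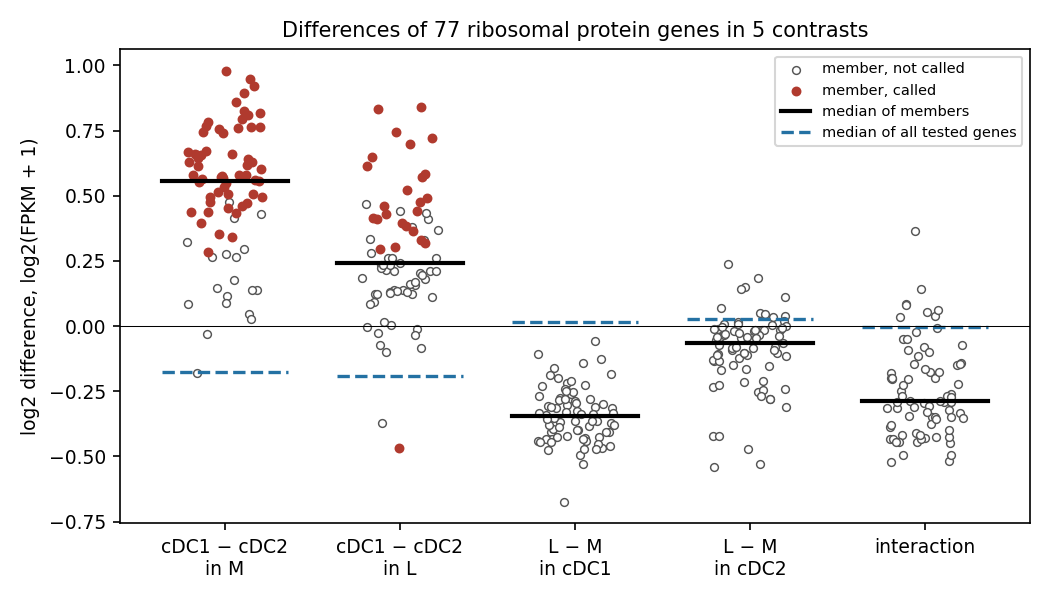
Log2 differences (vertical axis, log2(FPKM + 1) scale) of the 77 tested members in the comparisons of subset, of L with M and in the interaction. Each point is a gene, filled where called, with a black line at the members' median and a dashed line at the median of all tested genes. Points are filled in the comparisons of cDC1 with cDC2 and in no other, and all L minus M points in cDC1 are below 0.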

How the data were processed

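The authors deposited 1 table of FPKM values for the 12 libraries, with symbol, type and gene length for each row. Tools listed in the submitters' processing notes, with no roles given, are STAR 2.7.9a and featureCounts 2.0.1, the trimmers cutadapt 3.7, Trimmomatic 0.39 and Trim Galore 0.6.7, and DESeq2 1.20.0. The notes name a human build although the symbols are of the mouse. The build of the table is not given in the sources used here, so its coordinates are not printed. Values times length were whole reads for 100% of values in each library, within 0.01 read, which gave the totals. The level worth 3 reads covers counting error only.

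Genes at 1 FPKM or more in at least 3 libraries were tested on log2(FPKM + 1) with limma 3.58.1 (R 4.3.3), with an intensity trend, 1 mean per group over all 12 libraries and 8 residual degrees of freedom. An exact permutation of 3 against 3 libraries cannot reach the threshold. The members and gene lists were chosen with earlier results of these data known. Named were the 5 members with the largest positive and negative difference in each comparison, called exceptions, the 6 most abundant, paralog pairs, 9 members of known roles (Rpsa, Rplp0, Rplp1, Rplp2, Rps6, Rpl5, Rpl11, Rpl38 and Rpl22) and up to 3 genes per list and comparison by p. The members with the largest share of reads in copies, the subunits outside the naming pattern and the examples of members called in neither subset comparison were named after their values were seen. Results of some genes are not reported here. Alternatives varied the pseudocount (0.1), the filter, the scaling, the samples, the replicate block and the model (limma-voom on recovered reads).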

Additional observations from a re-analysis of the deposited data

How the results depend on the processing

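The number of members called within M stayed between 46 and 68 in all settings run (46 to 61 with 1 library left out), and the counts for L minus M and for the interaction were 0 in all of them. Within L the 25 calls became 51 after median-of-ratios scaling, and 17 to 39 with 1 library left out, 39 of them without L-cDC1 replicate 1; the cause was not tested. The replicate numbers were not used to pair libraries, since the labels name no shared source. Same-numbered libraries correlated at -0.010 to 0.156 in their deviations from group means, and libraries with other numbers at -0.153 to 0.0885. Most same-numbered pairs were above 0 and most of the other pairs below it. Not every library correlated best with its own number, and whether the numbers mark a shared source cannot be told from the labels. With a replicate block 64 members were called in M and 33 in L, 2 of the latter lower (Rps27 and Rpl26, the last at an adjusted p of 0.0364). At an unadjusted p under 0.05 the block gave 65 members for L minus M in cDC1, against 55 in the main fit. For the interaction it gave 22 against 12. Over all 12434 tested genes the block gave 1328 and 1130. With no filter on low values and on the TPM scale 1 member, Rpl39l, was called lower in M. Differences near 0 changed sign: in M, Rpl24 was at 0.0021 after median-of-ratios scaling, 0.060 after quantile normalization and -0.53 to 0.036 with 1 library left out; Rps23 at 0.17 after median-of-ratios scaling and -0.33 to 0.32 with 1 left out; Rpl5 at -0.016 on the TPM scale and -0.0068 to 0.32 with 1 left out; Rps27 at -0.040 after quantile normalization, -0.11 on the TPM scale and -0.10 to 0.13 with 1 left out; and Rpl4 at -0.046 after quantile normalization. In L, Rps15a was at 0.091, Rps19 at 0.11 and Rpl37a at 0.12 after median-of-ratios scaling, and with 1 library left out at -0.17 to 0.029, -0.15 to 0.037 and -0.21 to 0.11. With 1 library left out, Rpl29 for L minus M in cDC2 ran from -0.038 to 0.28, and the interaction from -0.12 to 0.19 for Rps2, -0.016 to 0.20 for Rpl4, -0.036 to 0.19 for Rpl13a and -0.21 to 0.44 for Rps23. The SD of log2 mean levels over members was 1.5, and 1.36 with transcript length. With 3 libraries a group, differences of the size of the standard errors given cannot be told from the spread.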

Other observations

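Reads on antigen receptor genes (immunoglobulin or T cell receptor) were 0.0903% to 0.426% of the total in L and 0.0572% to 0.0658% in M.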
